A study of Mus musculus with 15 samples.

Results

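The clustered protocadherins are a large family of cadherin-like adhesion proteins of neurons, encoded in an alpha, a beta and a gamma cluster that follow each other on the plus strand of mouse chromosome 18. They were taken as every gene on that chromosome whose symbol starts with Pcdha, Pcdhb or Pcdhg followed by a letter or number and that had at least 10 counts over all mice. This gave 58 of 43629 genes, 14 in the alpha, 22 in the beta and 22 in the gamma cluster. RNA-seq counts from whole brain, with 1 library per mouse, were compared between 4 young AL mice, 3 young EOD mice, 4 old AL mice and 4 old EOD mice. All were wildtype male C57BL/6J mice, aged 3 months (young) or 24 months (old) per the labels. AL mice had free access to food, and EOD mice were fed on every other day only, from young adulthood on, a regimen that the labels write as IF. The young EOD mice had therefore been on the regimen for a short time and the old ones for most of their lives. Whole brain mixes all its regions and cell types, so that in these data fewer cells of a type and less RNA per cell cannot be told apart.

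Each alpha and gamma gene starts with its own promoter and a long variable exon, which is spliced to a few constant exons shared by its whole cluster. Beta genes lack such constant exons, and each beta gene had 1 exon in the annotation. Most neurons are thought to choose a small, largely random set of alpha, beta and gamma genes, and the resulting mix of proteins lets a neuron recognise its own branches by like-to-like binding. Promoter choice is known to depend on CTCF, cohesin and DNA methylation. The 5 C-type genes at the 3′ ends of the alpha and gamma clusters (Pcdhac1, Pcdhac2, Pcdhgc3, Pcdhgc4 and Pcdhgc5) are known to be used more uniformly from neuron to neuron.

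In the GRCm38 coordinates of the deposited files, the alpha cluster covered chr18:36930184-37187661, the beta cluster chr18:37264938-37524479 and the gamma cluster chr18:37661793-37841873. Reads over exons that belong to several genes were not counted. A count of an alpha or gamma gene therefore came from exon bases of its own, such as its variable exon, and not from the constant exons shared by its cluster. For Pcdha11 the annotation also held exon bases outside its variable exon that no other member had. The alpha genes Pcdha4, Pcdha6 and Pcdha7 each also overlapped a readthrough gene that joins the alpha and gamma clusters (Gm42416, Gm37013 and Gm37388, respectively), and Pcdha4 kept only 494 unshared exon bases. All gamma genes overlapped these readthrough genes and Gm38182, and Pcdhga4 kept 1570 of 4727 exon bases. Pcdhb21 and Pcdhb22 overlapped each other and kept 4250 of 4705 and 6154 of 6609 exon bases. Sequences of the members are not printed here.

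Between 5198748 and 13610729 reads per mouse were counted on genes, and of these the members took 0.0565% to 0.0693%. Of the 58 members, 56 passed the filter on low counts and were tested. Pcdha4, with 14 counts in all mice together, and Pcdhb1, with 67, did not. One library stood apart: the third young AL mouse had the largest total count but the fewest genes with a count (17280 against 19054 to 20880 in the other mice), 54 of 58 members with a count, and the lowest median correlation with the other libraries. Values without it are given beside many of the results that it moves. All 10 neuron markers were tested, none passed in the age comparisons of AL or EOD mice, and their summed level was 8650 to 10500 CPM (counts scaled to a common library size) in young AL, 8880 to 9200 in young EOD, 8400 to 9380 in old AL and 8390 to 9410 in old EOD mice.

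Levels were first compared along each cluster, as CPM per kilobase of exon that no other gene on the strand shares, averaged over the 15 mice. The clusters were not used evenly. In the alpha cluster the C-type gene Pcdhac2, known for its role in the spacing of serotonergic axons, was highest with 12.2 CPM per kb, and the next was Pcdha12 with 2.64. The lowest tested alpha gene was Pcdha8 with 0.253 CPM per kb. In the gamma cluster the C-type genes Pcdhgc5 (18.9 CPM per kb) and Pcdhgc3 (14.3) were highest, followed by Pcdhga11 with 7.95, and the pseudogene Pcdhgb8 was lowest with 0.564. Pcdhgc4, the gamma gene known to be needed for the survival of many interneurons, ranked number 7 of 22 with 5.10 CPM per kb. The beta cluster was more even: Pcdhb9 reached 8.38 CPM per kb, and the other 20 tested beta genes lay between 1.12 for Pcdhb4 and 3.69 for Pcdhb12. Level did not follow position in the beta cluster, with a Spearman correlation of -0.0117 across 21 genes. With all exons of a gene in the length, as deposited, Pcdhac2 came to 6.28, Pcdhgc5 to 11.4 and Pcdhgb8 to 0.305 CPM per kb.

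**Figure D1:**
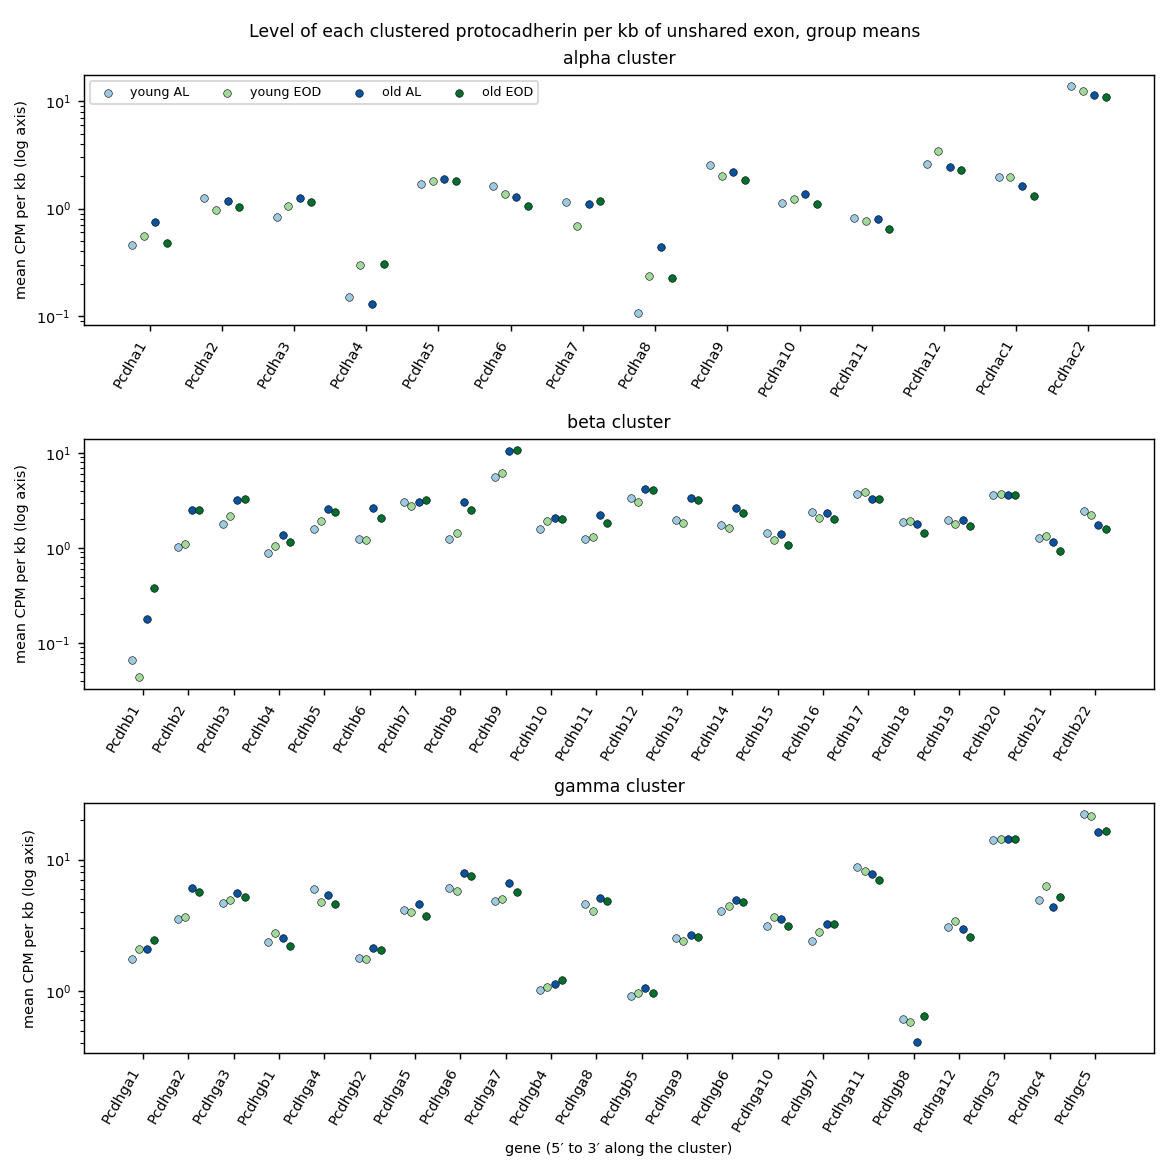
Mean level of each member in each of the 4 groups, in CPM per kb of unshared exon on a log axis, with genes from the 5′ to the 3′ end of each cluster. Pcdhac2, Pcdhb9 and Pcdhgc5 are the highest of their clusters, and most beta genes up to Pcdhb14 are higher in old (dark) than in young (light) mice.

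Comparing old with young AL mice asked how the clusters change with age under free feeding. Of the 56 members, 11 passed an FDR of 0.1 in edgeR's quasi-likelihood test, against 1.09% of all 15864 genes tested. Of these, 10 rose and 1 fell, as did 0.946% and 0.145% of all genes. Among the 10 that rose were 9 of the 21 beta genes tested: Pcdhb2, Pcdhb3, Pcdhb5, Pcdhb6, Pcdhb8, Pcdhb9, Pcdhb11, Pcdhb13 and Pcdhb14. The other was Pcdhga2, near the 5′ end of the gamma cluster, and the gene that fell was Pcdhgc5, at its 3′ end. None of the 13 alpha genes tested passed, with a smallest FDR of 0.389. An unadjusted p under 0.05 was found for 2 alpha genes, and for 9.52% of all genes.

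The member with the smallest p in this comparison was Pcdhb9 (chr18:37400855-37403909). It measured 15.3, 14.9, 22.4 and 15.9 CPM in the 4 young AL mice and 31.2, 32.9, 29.5 and 35.1 CPM in the 4 old AL mice. In EOD mice it measured 17.5, 17.7 and 21.4 CPM in young and 32.2, 36.9, 31.3 and 29.9 CPM in old mice. Every old mouse was above every young mouse, and the highest young value came from the third young AL mouse. Pcdhb9 rose by 0.91 ± 0.13 on the log2 scale (SE) in AL mice and by 0.79 ± 0.14 in EOD mice, with edgeR FDRs of 0.000329 and 0.0121. The rise in EOD mice no longer passed without the first (FDR 0.151) or the second young EOD mouse (FDR 0.116).

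Pcdhb13 (chr18:37442500-37446209) was the other member that passed under both diets. Its levels were 9.40, 6.23, 6.65 and 7.20 CPM in young AL mice and 12.8, 12.1, 13.2 and 12 CPM in old AL mice. In EOD mice they were 7.91, 6.02 and 6.44 CPM in young and 11.7, 12.4, 12.2 and 10.7 CPM in old mice. The young and old values did not overlap under either diet. The log2 differences were 0.77 ± 0.15 in AL and 0.78 ± 0.17 in EOD mice (SE), with edgeR FDRs of 0.00914 and 0.0544. The call in EOD mice was lost without any 1 of the 3 young EOD mice (FDRs 0.114, 0.362 and 0.296) or of the first, the second or the third old EOD mouse (0.143, 0.163 and 0.148), and with sequencing lane as a covariate (0.134), lane 3 holding no young EOD mouse.

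The largest rises among the beta genes with all mice were those of Pcdhb2, Pcdhb8 and Pcdhb6, whereas without the third young AL mouse the log2 differences were 1.12 for Pcdhb2, 1.08 for Pcdhb9, 1.0 for Pcdhb8 and 0.94 for Pcdhb6. Pcdhb2 (chr18:37294812-37297624) measured 4.70, 2.20, 1.44 and 3.10 CPM in young AL and 9.57, 6.43, 6.24 and 6.14 CPM in old AL mice, a log2 difference of 1.35 ± 0.29 (SE, edgeR FDR 0.0217). In EOD mice it measured 4.21, 2.41 and 2.63 CPM in young and 6.20, 8.19, 8.10 and 5.58 CPM in old mice. All old mice were higher than all young mice, although the difference of 1.15 ± 0.32 in EOD mice did not pass (FDR 0.313), and without the first old AL mouse that in AL mice did not either (FDR 0.118).

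Pcdhb8 (chr18:37355121-37358604) measured 4.10, 5.77, 1.51 and 5.94 CPM in young AL and 10.9, 10.2, 11.7 and 9.83 CPM in old AL mice. Its value in the third young AL mouse was the lowest of all, and the AL log2 difference was 1.30 ± 0.28 (SE, edgeR FDR 0.0262) with this mouse and 1.0 without it (FDR 0.0177). In EOD mice it measured 3.08, 5.85 and 6.05 CPM in young and 7.04, 8.88, 10.6 and 8.27 CPM in old mice, a difference of 0.83 ± 0.32 that did not pass (FDR 0.737). Pcdhb6 (chr18:37333921-37337674) measured 5.42, 4.31, 3.17 and 5.69 CPM in young AL and 12.2, 9.32, 9.08 and 8.66 CPM in old AL mice. Its log2 difference was 1.09 ± 0.20 in AL mice (SE, edgeR FDR 0.00552). Young EOD mice had 4.11, 5.67 and 3.81 CPM of Pcdhb6 and old EOD mice 7.62, 8.65, 7.18 and 7.89 CPM, again without overlap, for a difference of 0.81 ± 0.22 (FDR 0.310).

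The other beta genes that rose in AL mice were Pcdhb3, Pcdhb5, Pcdhb11 and Pcdhb14. Pcdhb14 (chr18:37447656-37456350) measured 15.2, 13.3, 18.4 and 13.6 CPM in young AL and 22.9, 23.0, 23.8 and 21.4 CPM in old AL mice, a log2 difference of 0.59 ± 0.12 (SE, edgeR FDR 0.0122). Pcdhb3 (chr18:37300799-37304585) measured 7.11, 7.42, 6.27 and 5.94 CPM in young AL and 14.3, 12.1, 10.8 and 11.4 CPM in old AL mice, a log2 difference of 0.87 ± 0.16 (FDR 0.00587). Both also had no overlap between young and old EOD mice: Pcdhb14 was at 13.3 to 14.5 CPM in young and 18.1 to 21.4 CPM in old, and Pcdhb3 at 6.57 to 10.7 CPM in young and 11.6 to 13.3 CPM in old EOD mice.

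Among the beta genes that rose in AL mice, Pcdhb5 was the least certain, and Pcdhb11 lost its call in the same 2 settings as Pcdhb2. Pcdhb11 (chr18:37421418-37425836) measured 5.06, 6.05, 5.29 and 5.69 CPM in young AL and 11.6, 10.2, 6.81 and 10.2 CPM in old AL mice, a log2 difference of 0.82 ± 0.18 (SE, edgeR FDR 0.0251), which did not pass without the first old AL mouse (FDR 0.118). It was at 4.99 to 7.08 CPM in young and 6.83 to 9.30 CPM in old EOD mice, which overlapped. Pcdhb5 (chr18:37320381-37323915) measured 5.30, 5.77, 6.19 and 5.02 CPM in young AL and 6.71, 9.19, 11.2 and 9.33 CPM in old AL mice. Its log2 difference of 0.69 ± 0.17 had an FDR of 0.0675, and it passed with neither the first, the second or the fourth young AL mouse left out (FDRs 0.125, 0.130 and 0.133) nor the second, the third or the fourth old AL mouse (0.154, 0.270 and 0.166). With sequencing lane as a covariate its FDR was 0.128, and with only the groups compared in the fit 0.275. Averaged over diets its FDR was 0.0487, but 0.195 without the first young EOD mouse and 0.116 without the third old AL mouse. Old EOD mice had 8.04 to 8.66 CPM of Pcdhb5 and young EOD mice 5.44 to 7.74 CPM.

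**Figure D2:**
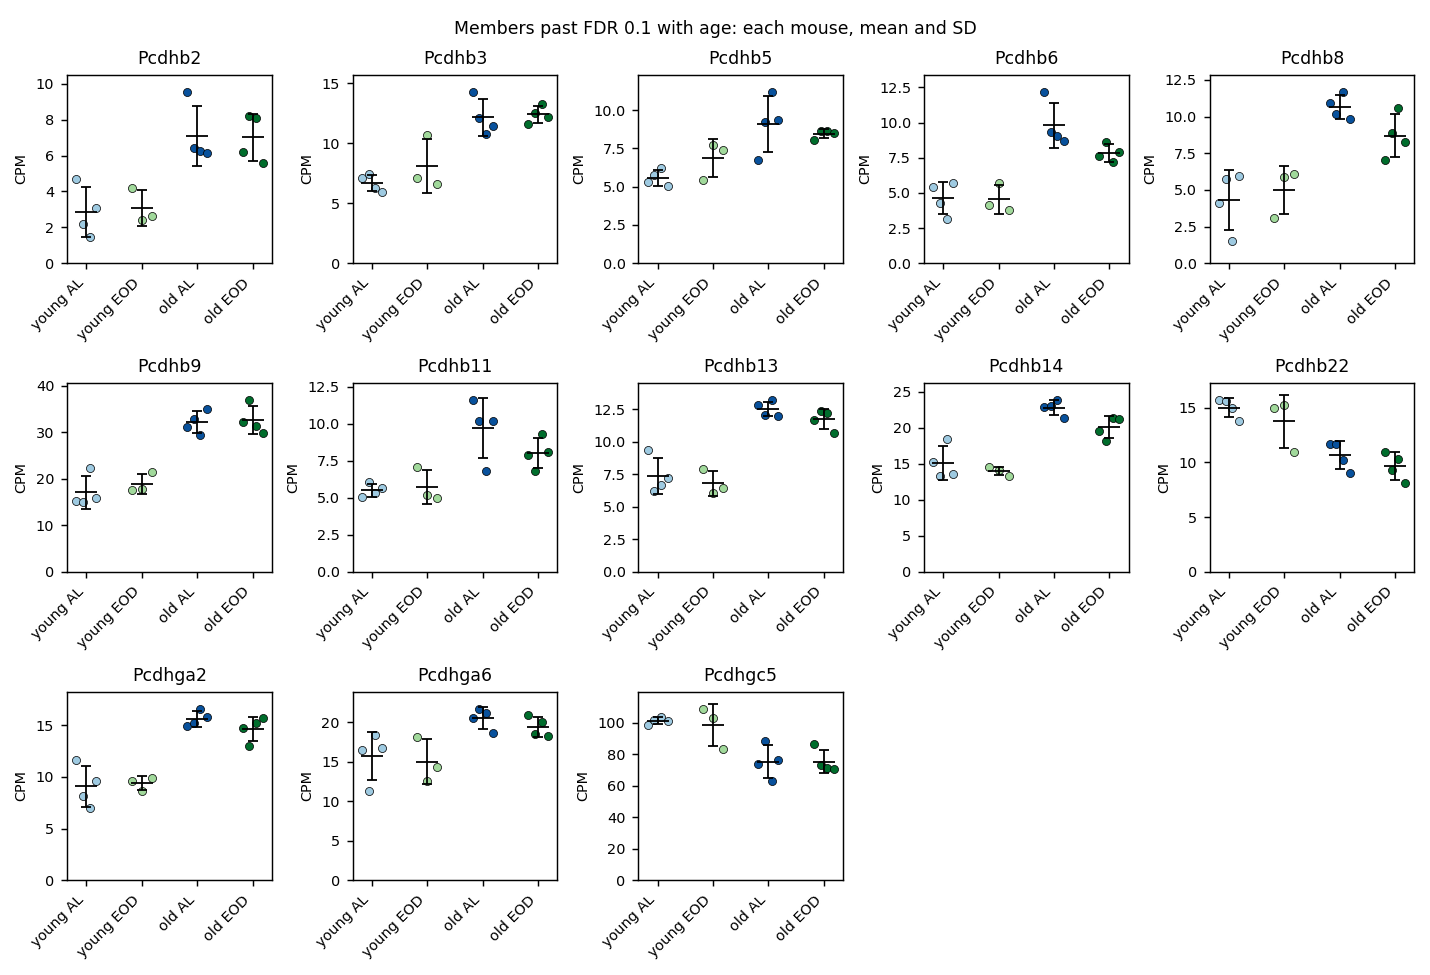
CPM of each of the 13 members that passed FDR 0.1 in any age comparison, with 1 point per mouse and the mean and SD of each group. The 9 beta genes from Pcdhb2 to Pcdhb14, Pcdhga2 and Pcdhga6 sit higher in old mice, and Pcdhb22 and Pcdhgc5 sit lower.

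In the gamma cluster, Pcdhga2 (chr18:37668953-37841870) measured 11.6, 8.15, 6.95 and 9.62 CPM in young AL and 14.9, 15.2, 16.6 and 15.8 CPM in old AL mice. In EOD mice it measured 9.65, 8.60 and 9.86 CPM in young and 14.7, 13.0, 15.2 and 15.7 CPM in old mice. No young mouse reached the lowest old mouse. It rose by 0.80 ± 0.14 on the log2 scale in AL mice (SE, edgeR FDR 0.00545) and had a difference of 0.64 ± 0.16 in EOD mice (FDR 0.163).

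Pcdhgc5 (chr18:37819513-37841873), the member with the highest level per kb, measured 98.9, 102, 104 and 101 CPM in young AL and 73.7, 88.2, 62.8 and 76.2 CPM in old AL mice, which did not overlap. It measured 109, 103 and 83.5 CPM in young EOD and 86.4, 73.3, 71.1 and 71.0 CPM in old EOD mice, where the lowest young and the highest old mouse crossed. It fell by 0.43 ± 0.10 on the log2 scale in AL mice (SE, edgeR FDR 0.0389). The difference in EOD mice was -0.38 ± 0.11 (FDR 0.310). The fall in AL mice did not pass without the first (FDR 0.118) or the third old AL mouse (FDR 0.188), nor with sequencing lane as a covariate and the third young AL mouse left out (FDR 0.368).

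The remaining C-type genes did not pass. Pcdhgc3, a long-known gamma gene expressed in many cell types, had overlapping values: 50.4, 39.8, 37.8 and 63.3 CPM in young AL against 44.8, 47.5, 52.6 and 48.8 CPM in old AL mice, and 45.9 to 51.6 CPM in young against 45.9 to 52.9 CPM in old EOD mice. Its log2 age differences were 0.02 ± 0.12 in AL and -0.01 ± 0.13 in EOD mice (SE). Pcdhgc4 measured 14.9, 15.1, 18 and 20.7 CPM in young AL and 19.0, 14.8, 13.6 and 12.7 CPM in old AL mice. It was at 20.5 to 22.9 CPM in young and 15.3 to 21.3 CPM in old EOD mice, with differences of -0.20 ± 0.14 and -0.30 ± 0.15. Pcdhac2 measured 36.6, 34.8, 55.7 and 41.7 CPM in young AL and 33.1, 35.3, 34.0 and 35.2 CPM in old AL mice. The difference was -0.30 ± 0.12 with all mice (FDR 0.389) and -0.13 without the third young AL mouse, which had the highest value. Young EOD mice had 35.1 to 42.0 CPM of Pcdhac2 and old EOD mice 32.6 to 34.7 CPM, without overlap. Pcdhac1 was at 3.51 to 7.93 CPM in young AL, 3.22 to 5.60 in old AL, 4.31 to 5.65 in young EOD and 2.60 to 4.21 in old EOD mice. Its log2 difference in AL mice was -0.29 ± 0.27 with all mice and 0.04 without the third young AL mouse. In EOD mice the values did not overlap, and the difference of -0.59 ± 0.30 was the lowest of all members but did not pass (FDR 0.886).

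Comparing old with young EOD mice asked whether the same held under restricted feeding. Pcdhb9 and Pcdhb13 rose, 2 of 56 members, against 0.290% of all genes that passed and 0.258% that rose. All 11 members that passed in AL mice had the same sign in EOD mice, as had 61.9% of all genes tested, whether they passed or not. The 11 had been chosen for their difference in AL mice and the 61.9% had not, so that these shares are not alike. The 2 comparisons share no mice, although they share 1 fit. Without the third young AL mouse, which is in neither EOD group but in the same fit, 6 members passed in EOD mice: Pcdhb2, Pcdhb6, Pcdhb9, Pcdhb13, Pcdhb14 and Pcdhga2. The number of all genes that passed went from 46 to 76 with this change. Without the first young EOD mouse no member passed, and without the second or the third, 1 did, where 19 to 21 of all genes passed. In the test of the difference between both age effects (the interaction) no member passed an unadjusted p of 0.05, against 2.28% of all genes, so that no difference in the age effect between the diets was shown. For Pcdhb9 that difference was -0.12 ± 0.19 on the log2 scale (SE) with all mice and -0.29 without the third young AL mouse. For Pcdhb8 it was -0.48 ± 0.43 with all mice and -0.16 without this mouse. Of the 56 members, 41 had interaction estimates below 0, with a median of -0.14, while 51.5% of all genes had estimates above 0. As the members are not independent of each other, this count is a description and was not tested.

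**Figure D3:**
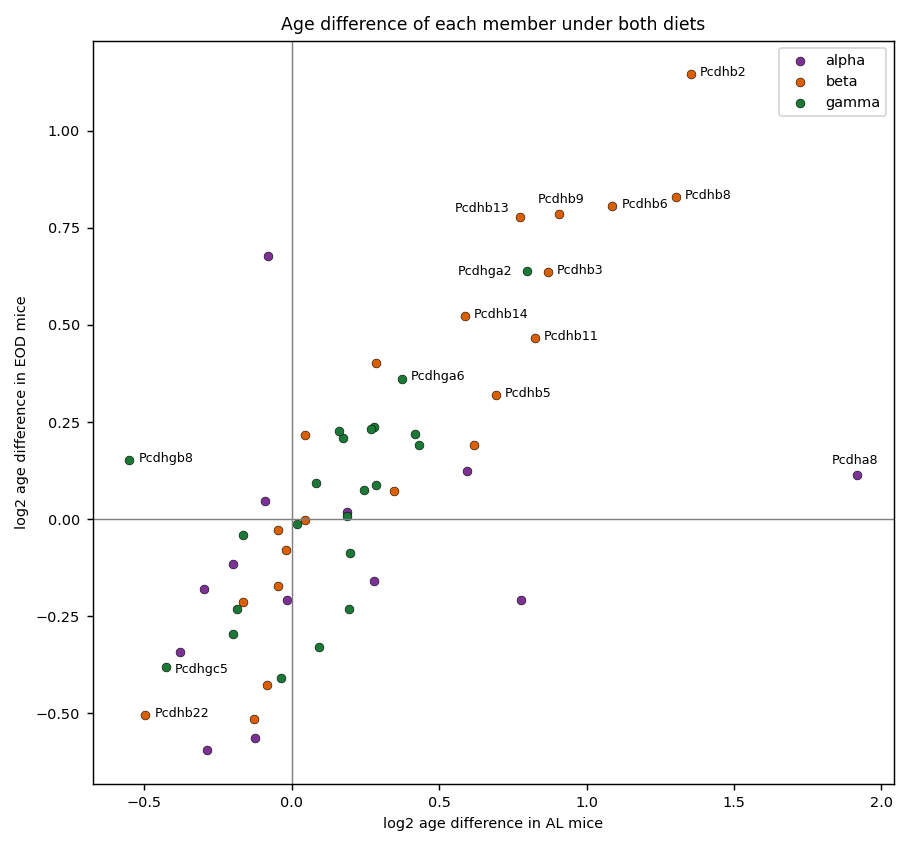
Log2 age difference of the 56 tested members in AL mice (x axis) and in EOD mice (y axis), colored by cluster, with the members that passed in any age comparison, Pcdha8 and Pcdhgb8 named. Beta genes run along the diagonal, and alpha genes scatter.

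Across the 21 tested beta genes, the log2 age differences in AL and EOD mice had a Pearson correlation of 0.938, and 20 of 21 had the same sign. The correlation was 0.657 across the 22 gamma genes and 0.293 across the 13 alpha genes, which had few counts, and 0.369 across all genes tested. The sign was the same for 17 of 22 gamma genes, 9 of 13 alpha genes and 61.9% of all genes tested. The genes of a cluster are not independent of each other, and these values describe them without a test.

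Averaged over both diets, 13 members passed, 11 higher and 2 lower in old mice, against 2.30% of all genes, 1.62% higher and 0.681% lower. They comprised the 11 of AL mice and, in addition, Pcdhga6 and Pcdhb22. Pcdhb22 (chr18:37517871-37524479), the last beta gene, was the only beta gene that fell. It measured 15.7, 15.6, 15 and 13.8 CPM in young AL and 11.7, 11.7, 10.2 and 9.08 CPM in old AL mice. In EOD mice it measured 15, 15.3 and 11 CPM in young and 11, 9.33, 10.3 and 8.08 CPM in old mice. It fell by 0.50 ± 0.10 on the log2 scale (SE, edgeR FDR 0.0136), with estimates of -0.50 under each diet. Pcdhga6 (chr18:37707039-37841873) measured 16.5, 11.3, 18.4 and 16.7 CPM in young AL, 20.5, 21.7, 21.2 and 18.6 CPM in old AL, 18.1, 12.6 and 14.3 CPM in young EOD and 20.9, 18.5, 20 and 18.3 CPM in old EOD mice. Its log2 difference of 0.37 ± 0.10 was the closest to the threshold (FDR 0.0946). It did not pass when 1 mouse was left out (FDRs 0.106 to 0.279), unless this was the third or the fourth young AL, the first young EOD or the fourth old AL mouse, nor with lane as a covariate (FDR 0.177).

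The age differences followed position within the beta cluster. The 13 genes from Pcdhb2 to Pcdhb14 all had estimates above 0 under both diets, with a median log2 difference of 0.77 in AL mice and 0.52 in EOD mice. Of the 8 genes from Pcdhb15 to Pcdhb22, 7 had estimates below 0 in AL mice and 8 in EOD mice, with medians of -0.07 and -0.19. The median of all genes tested was -0.01 in AL mice. This boundary was drawn after the values had been seen and was not tested. The Spearman correlation of gene order with the age difference was -0.825 in AL and -0.766 in EOD mice across 21 genes, and -0.796 and -0.766 without the third young AL mouse. The order was not strict. Within the first 13 genes 4 did not pass in AL mice: Pcdhb4, Pcdhb7, Pcdhb10 and Pcdhb12 had estimates of 0.62 ± 0.22, 0.05 ± 0.17, 0.35 ± 0.20 and 0.29 ± 0.20 (SE). Pcdhb7 was at 8.39 to 12.4 CPM in young AL and 7.38 to 13.6 CPM in old AL mice.

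**Figure D4:**
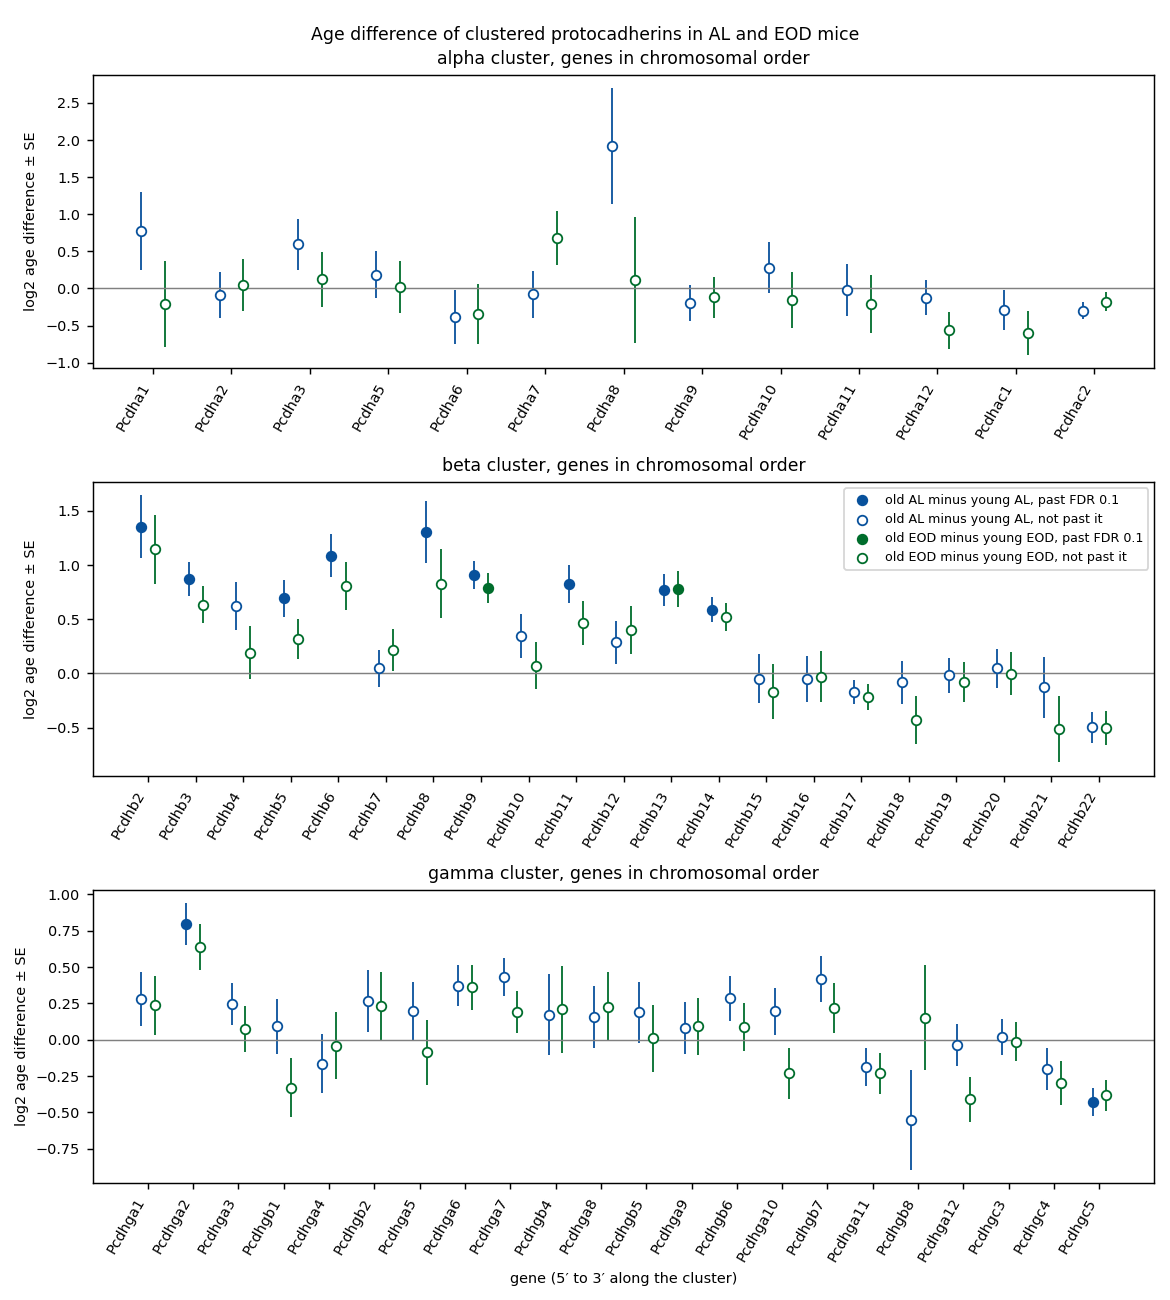
Log2 age difference with its SE for each tested member in chromosomal order, in AL mice (blue) and EOD mice (green), filled where the edgeR FDR was under 0.1. In the beta cluster the estimates are above 0 up to Pcdhb14 and near or below 0 from Pcdhb15 on, and in the gamma cluster they run from Pcdhga2 above 0 to Pcdhgc5 below 0.

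A weaker decline with position was seen in the gamma cluster. The correlation was -0.593 in AL and -0.511 in EOD mice across 22 genes, and -0.418 and -0.372 across the 19 genes left without the C-type genes. Without the third young AL mouse it was -0.643 and -0.519 across the 22 genes. From Pcdhga1 to Pcdhgb7, 15 of 16 genes had estimates above 0 in AL mice and 12 of 16 in EOD mice. Without the third young AL mouse, the AL estimates of Pcdhga5 (-0.02) and Pcdhga9 (-0.07) were below 0 and that of Pcdhga4 (0.12) was above it. From Pcdhga11 to Pcdhgc5, 5 of 6 were below 0 under each diet. This boundary too was drawn after the values had been seen, so that the counts on either side describe the choice and were not tested. In the alpha cluster the correlation was -0.478 and -0.500 across 13 genes, and -0.273 and -0.409 across the 11 without C-type genes. For diet, where no gene passed, the correlation with gene order was -0.574 in young and -0.266 in old mice across beta genes. Without the third young AL mouse the value in young mice was -0.249. Across gamma genes the diet correlations were -0.0311 and 0.299 in young and old mice, and across alpha genes 0.0165 and 0.0989. No correlation with order was tested. Alpha genes were low, and the largest alpha estimate, 1.92 ± 0.78 for Pcdha8 in AL mice (SE, edgeR FDR 0.413), rested on 12 counts in the 4 young mice. Without the third young AL mouse that estimate was 1.44 (edgeR FDR 0.708). Pcdha8 measured 0.121, 0.0916, 0 and 0.837 CPM in young AL and 0.249, 1.05, 1.89 and 1.18 CPM in old AL mice, which overlapped.

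The clusters as wholes were then compared, as the summed CPM of all members per mouse. The beta cluster was 198.8, 179.0, 188.2 and 186.5 CPM in young AL and 270.6, 247.1, 228.1 and 226.9 CPM in old AL mice. It was 187.4, 197.9 and 179.0 CPM in young EOD and 222.4, 228.7, 244.8 and 207.9 CPM in old EOD mice. All old mice lay above all young mice, and the log2 difference was 0.37 ± 0.07 (SE) in AL and 0.26 ± 0.07 in EOD mice. The gamma cluster overlapped between ages, at 346.6 ± 26.4 CPM (SD, n = 4) in young AL, 345.3 ± 12.3 (n = 4) in old AL, 351.9 ± 19.9 (n = 3) in young EOD and 333.1 ± 18.7 (n = 4) in old EOD mice. The alpha cluster was 83.4 ± 12, 75.9 ± 4.16, 79.1 ± 7.16 and 69.5 ± 2.51 CPM in the same order, and its age differences of -0.13 ± 0.11 and -0.18 ± 0.07 on the log2 scale went with overlapping values. Without the third young AL mouse the young AL mean of the alpha cluster was 78.1 ± 7.08 CPM.

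The distribution of counts along the clusters was compared next. The mean position of the counts, in kb from the start of the first gene of the cluster and weighted by CPM, was 172.4 to 176.0 kb in young AL and 153.8 to 159.1 kb in old AL mice for the beta cluster. It was 168.5 to 174.1 kb in young EOD and 152.6 to 157.3 kb in old EOD mice. For the gamma cluster it was 102.0 to 105.0 kb in young AL, 92.9 to 96.2 kb in old AL, 100.8 to 105.3 kb in young EOD and 93.7 to 97.7 kb in old EOD mice. In both clusters each old mouse lay nearer to the 5′ end than each young mouse. Alpha positions overlapped, with means of 140.5, 131.4, 138.3 and 135.4 kb in young AL, old AL, young EOD and old EOD mice.

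As shares, Pcdhb1 to Pcdhb14 made up 49.6% to 54.3% of beta CPM in young AL, 63.9% to 68.7% in old AL, 52.7% to 55.5% in young EOD and 65.4% to 69.3% in old EOD mice. The 3 gamma C-type genes made up 48.0% ± 1.44 (SD, n = 4) of gamma CPM in young AL and 40.1% ± 1.18 (n = 4) in old AL mice. In EOD mice their share was 48.0% ± 1.69 (n = 3) in young and 42.5% ± 1.07 (n = 4) in old mice. Young and old mice overlapped in neither share. The shares and positions come from the same counts as the differences of single genes and are another description of them.

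**Figure D5:**
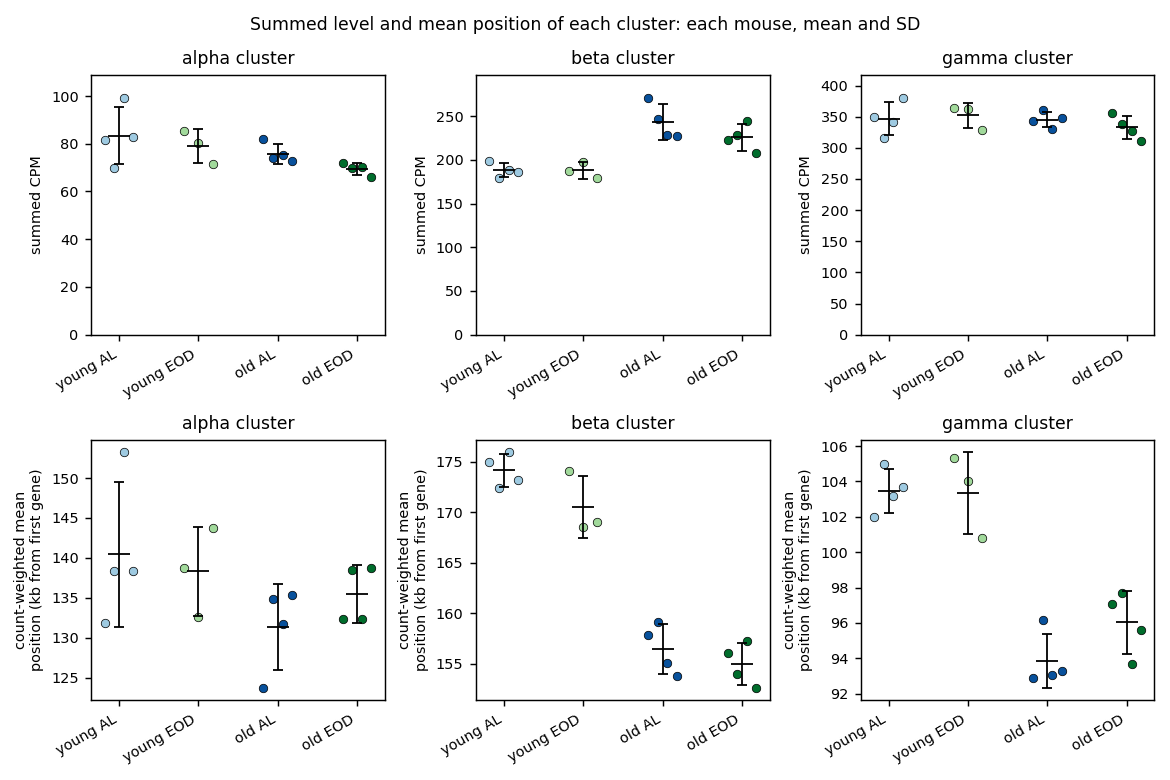
Summed CPM of each cluster (top row) and CPM-weighted mean position in kb from the first gene's start (bottom row, axes not from 0), with 1 point per mouse and the mean and SD of each group. The beta sum is higher in all old mice, and the beta and gamma positions are nearer to the 5′ end in all old mice.

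Comparing EOD with AL mice of one age asked whether feeding alone altered the clusters. No member passed in young mice, in old mice or in the interaction, and 0 of 15864 genes did. Without adjustment, 1 member was past a threshold of 0.05 in young mice (Pcdhgc4, higher in EOD mice, against 4.14% of all genes), 0 in old mice (2.58%) and 0 in the interaction. DESeq2 also called 0 members in each. Pcdhgc4 measured 14.9 to 20.7 CPM in young AL and 20.5 to 22.9 CPM in young EOD mice, and its log2 difference was 0.35 ± 0.15 (SE, edgeR FDR 0.996). The beta sum of young mice had like means under both diets, 188.1 ± 8.18 CPM in AL (SD, n = 4) and 188.1 ± 9.47 CPM in EOD mice (n = 3).

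In old mice, 45 of 56 members had estimates below 0 (EOD lower than AL), with a median of -0.11 on the log2 scale, while 50.8% of all genes had estimates above 0. The members are not independent of each other and come from the same mice, so that this count is a description and was not tested. The largest were -0.84 ± 0.70 for Pcdha8 and 0.62 ± 0.34 for Pcdhgb8 (SE). Between old AL and old EOD mice, 3 members did not overlap: Pcdha1, Pcdhb6 and Pcdhb14 were lower in every EOD mouse, against 1.36% of all genes in that direction. The alpha sum did not overlap either, with 72.6 to 81.9 CPM in old AL and 66.1 to 72.1 CPM in old EOD mice, a log2 difference of -0.13 ± 0.05. In young mice the largest estimates were 0.96 ± 0.95 for Pcdha8 and -0.68 ± 0.36 for Pcdha7, both with few counts. Without the third young AL mouse they were 0.47 and -0.49, and that of Pcdha12 was 0.53.

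Groups that did not overlap were also counted for age. In AL mice 13 of 56 members were higher in every old than in every young mouse and 3 were lower, against 2.98% and 1.58% of all genes. In EOD mice the numbers were 10 and 5, against 4.75% and 4.29%. Beyond those that passed, they included Pcdhb4 in AL mice, at 2.93 to 3.74 CPM in young and 4.59 to 5.22 CPM in old mice (log2 difference 0.62 ± 0.22, FDR 0.325). Pcdhga7 was the other gene higher without overlap in AL mice that passed in no age comparison, and Pcdhgb8 was lower, at 1.34 to 1.81 CPM in young and 0.757 to 1.18 CPM in old mice.

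The untested Pcdhb1, the first beta gene, had 0, 3, 0 and 5 counts in young AL, 5, 2, 2 and 7 in old AL, 2, 0 and 1 in young EOD and 13, 13, 8 and 6 in old EOD mice. Fitted without the filter on low counts, its age difference averaged over diets was 2.08 ± 0.65 on the log2 scale (SE, edgeR FDR 0.0664). In that fit 653 of 26269 genes passed averaged over diets. The FDR of Pcdhb1 was 0.704 in AL and 0.451 in EOD mice, so that it passed under neither diet alone.

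Sequencing lane differed between mice. Differences were therefore also taken within each lane that held both ages, lanes 1, 2 and 3 for AL and lanes 1 and 2 for EOD mice, since lane 3 held no young EOD mouse. For the 11 members called higher averaged over diets, the median was 0.93, 0.82 and 0.70 on the log2 scale in the AL lanes and 0.54 in both EOD lanes. Each of these rests on 1 or 2 mice per age. The 11 were chosen by their difference in the same mice, which largely fixes their direction within lanes, so that these values are a description only.

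The genes that are known to control or act with the clusters were counted from lists, to be read beside the 2.30% of all genes that passed averaged over diets and the 0.681% that fell. Of 27 tested regulators of the clusters, among them Ctcf, the cohesin genes, Smchd1 and the DNA methyltransferases, none passed in AL or in EOD mice. Averaged over diets 1 did, Tet1, which starts the removal of DNA methylation and fell by 0.42 ± 0.11 on the log2 scale (SE, edgeR FDR 0.0628). Ctcf was at 90.5 CPM in young AL and 85.5 CPM in old AL mice (log2 difference -0.08 ± 0.07). Of 28 tested partners in adhesion, cleavage and signaling, 2 passed averaged over diets: the kinase gene Fyn fell by 0.16 ± 0.04, and Marcks, which encodes an actin-binding target of protein kinase C, fell by 0.24 ± 0.06 (FDRs 0.0884 and 0.0429). Of 12 tested protocadherins outside the clusters 1 passed, Pcdh10, which fell by 0.25 ± 0.05 (FDR 0.0122), and 11 of 12 had estimates below 0. None of the 9 tested genes beside and between the clusters passed in any age comparison, with a smallest FDR of 0.600. Among them Taf7, which lies between the beta and gamma clusters, had a log2 difference of 0.11 in AL mice. None of the 7 tested genes on the other strand over exons of members passed either.

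Some markers of other cell types also changed with age. The summed level of 6 microglia markers was 267 to 288 CPM in young AL, 265 to 278 in young EOD, 342 to 384 in old AL and 332 to 369 in old EOD mice, and 3 of 6 were called higher averaged over diets. That of 6 markers of immature neurons was 118 to 159 CPM in young AL, 103 to 153 in young EOD, 89.2 to 112 in old AL and 99.3 to 120 in old EOD mice, and 2 of 6 (Sox4 and Igfbpl1) were called lower. Gfap of the 6 astrocyte markers was called higher under each diet and averaged over diets, and Mbp of the 6 oligodendrocyte markers was called higher in AL mice and averaged over diets. No other marker of either list was called. The median log2 age difference was 0.01 in AL and -0.07 in EOD mice for the astrocyte list, and 0.15 and -0.06 for the oligodendrocyte list. In the lists of serotonergic neurons, endothelium, choroid plexus and blood, no marker was called in any age comparison. Gpr17 of the 3 markers of oligodendrocyte precursors was called lower averaged over diets. Gh and Prl, of 3 pituitary markers, were called higher in AL mice, but no pituitary marker was called in EOD mice or averaged over diets. The summed level of the 3 was 0.680 to 7.11 CPM in young AL, 0.616 to 1.58 in young EOD, 0.870 to 982 in old AL and 0.673 to 1.57 in old EOD mice. No marker of these lists was at 0 in every mouse. Their part in the protocadherin differences was not tested.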

How the data were processed

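RNA-seq of whole brain was analyzed from 15 mice, grouped by the labels, with 1 library per mouse. The authors aligned reads with STAR to GRCm38 and counted them on Ensembl 79 genes with featureCounts 1.5.0-p1 (primary alignments, mapping quality of at least 5, reverse stranded), leaving out reads that fall on several genes. The deposited values are raw counts of reads per gene. Symbols were matched by Ensembl identifier, and 42462 of 43629 genes had one. One gene listed under the symbol Pcdha11, which was also given to another gene, lies on RefSeq's Pcdha10 and is called that here.

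Differences in counts came from edgeR 4.0.16 under R 4.3.3 (filterByExpr, TMM scaling, quasi-likelihood test, Benjamini-Hochberg adjustment over 15864 genes, FDR under 0.1) in 1 fit of the 4 group means. SEs of single genes are the log2 difference divided by the square root of F. Those of cluster sums come from the pooled SD of the log2 sums between mice, without an edgeR test. CPM are scaled by TMM. Tables and figures used Python 3.11.15, pandas 2.3.3 and matplotlib 3.10.9. The fits were tested on simulated counts. Total counts of 5198748 to 13610729 per mouse leave members with few counts, above all alpha genes, imprecise.

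Members with the value of each mouse were the highest and lowest tested per kb in each cluster, the C-type genes, those past FDR 0.1, and those with the smallest p or the largest difference in each comparison. The members, lists and tests were chosen with earlier results of these data known. Alternatives were other filters, RLE factors, DESeq2 1.42.0, FDR 0.05, replicate number as a block, lane as a covariate, a fit of the groups compared alone, and each mouse left out in turn. Lane as a covariate without the third young AL mouse was added after seeing the data. Pairs of replicates in a group differed by more than counting noise (chi-square per degree of freedom 3.01 to 16.6 in 21 pairs). The labels do not say whether mice shared litters or cages.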

Additional observations from a re-analysis of the deposited data

Results flagged for a closer look

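In 5 of 75 groups of 4 mice, 1 mouse lay far from the other 3, by a rule that chance alone meets in about 1 of 20 groups. Pcdha8 measured 0.837 CPM in the fourth young AL mouse against 0 to 0.121 CPM in the others of its group, and 1.26 CPM in the first old EOD mouse against 0.228 to 0.385 CPM. Pcdhb9 measured 22.4 CPM in the third young AL mouse, the library that stands apart from the rest, against 14.9 to 15.9 CPM. Pcdhgc5 measured 86.4 CPM in the first old EOD mouse against 71.0 to 73.3 CPM. Pcdhb2 measured 9.57 CPM in the first old AL mouse against 6.14 to 6.43 CPM.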

How the results depend on the processing

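The count of members called with age in AL mice was 9 to 11 under other filters, RLE factors, DESeq2, FDR 0.05, the replicate block and lane as a covariate (with all mice or without the third young AL mouse). It was 7 when only the groups compared were fitted, where Pcdhb2, Pcdhb5, Pcdhb8 and Pcdhb11 no longer passed. Leaving out 1 mouse at a time gave 8 to 11, with 8 without the first old AL mouse and 9 without the third. In EOD mice the count of 2 became 4 with every gene that had a count, 4 with only the groups compared, 4 with DESeq2, 1 at FDR 0.05 and 1 with lane as a covariate, and leaving out 1 mouse gave 0 to 6. It was 0 without the first young EOD mouse, 1 without the second or the third, 1 without the first, the second or the third old EOD mouse, 3 without the first young AL mouse and 6 without the third young AL mouse. The cause of these shifts was not tested. Averaged over diets the count was 12 to 14 under the other settings and 11 to 13 with 1 mouse left out. No member was called for diet or the interaction under any setting. No difference changed sign where it had been called, and no difference of a cluster sum between groups moved by more than the spread between mice under total-count or RLE scaling or with 1 mouse left out.

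Same-numbered mice of different groups did not deviate together (mean correlation -0.0266, range -0.113 to 0.113, 21 pairs). No pairing by number was thus seen, although a weak one could be missed. With the replicate block, 11 members were called in AL mice, 2 in EOD mice, 13 averaged over diets and 0 for diet in young mice, diet in old mice and the interaction.

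With few mice a group, differences in members with few counts, such as Pcdha8 and Pcdhb1, were not detectable unless large.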
